A study of Mus musculus with 8 samples.

Results

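The immediate early genes examined here were Fos, Fosb, Fosl1, Jun, Junb, Egr1, Egr2, Ier2, Ier3 and Nr4a1, 10 of the 19493 endogenous genes in the count table, selected by gene name. All 10 were found in the table and all 10 passed the filter on low counts, which kept 16470 genes. Poly(A) RNA had been sequenced from 8 cultures of mouse embryonic fibroblasts (MEFs), cells grown out of embryos at E14.5, of which 4 were wild-type (WT) and 4 were Dp1Tyb. Dp1Tyb cells carry Dp(16Lipi-Zbtb21)1TybEmcf, a tandem duplication of the part of mouse chromosome 16 that runs from Lipi to Zbtb21 and is orthologous to much of human chromosome 21, and no member lies on that chromosome. The labels give the strain background of both genotypes as C57BL/6J.129P2, and the methods add that all mice had been backcrossed to C57BL/6JNimr. All cells were kept in serum-containing medium and lifted off the plate with trypsin before ERCC spike-ins, synthetic transcripts in known amounts, were added and RNA was extracted. The cells came from embryos rather than from a clone. The methods describe MEFs from littermate WT and Dp1Tyb embryos, but the labels do not name the embryo behind each culture. The p-values therefore rest on the spread between these 8 samples. With counts scaled to the spike-ins, that spread was taken as nearly common to all genes.

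Immediate early genes are switched on within minutes of growth factor, stress or mechanical signals, without new protein synthesis. Signals passing through the ERK and p38 kinases reach factors already bound at their promoters, such as SRF with its ELK partners at CArG boxes and CREB at cAMP response elements. Many of the products are themselves transcription factors, and most of the mRNAs are short-lived. In fibroblasts they are classically induced when serum is added to resting cells, and detaching or handling cells also induces them. FOS and JUN family proteins pair to form AP-1, which binds the letters TGACTCA, EGR proteins are zinc finger factors that bind GC-rich sites, and NR4A1 is an orphan nuclear receptor.

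RefSeq promoters were at hand for 7 of the 10 members: Fos, Fosb, Jun, Junb, Egr2, Ier3 and Nr4a1. The 150 bases before the start site are given for 5 of them because these are the genes whose ratios to each other within a library are given further on. Sequences run 5′ to 3′ along the gene strand of GRCm38.p6, and capitals mark the motifs searched for. The windows are chr12:85473740-85473889 on the plus strand for Fos, chr7:19310046-19310195 on the minus strand for Fosb, chr4:95052223-95052372 on the minus strand for Jun, chr8:84978749-84978898 on the minus strand for Junb and chr15:101266696-101266845 on the plus strand for Nr4a1. The Nr4a1 window lies inside the annotated span of that gene, ahead of a shorter transcript, and the others lie at the 5′ end of their genes.
Fos: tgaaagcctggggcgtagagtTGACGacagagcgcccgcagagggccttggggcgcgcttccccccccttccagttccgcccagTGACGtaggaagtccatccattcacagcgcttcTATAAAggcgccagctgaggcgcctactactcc
Fosb: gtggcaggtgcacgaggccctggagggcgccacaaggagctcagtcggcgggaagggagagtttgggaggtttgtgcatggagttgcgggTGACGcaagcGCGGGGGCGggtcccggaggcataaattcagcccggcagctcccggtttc
Jun: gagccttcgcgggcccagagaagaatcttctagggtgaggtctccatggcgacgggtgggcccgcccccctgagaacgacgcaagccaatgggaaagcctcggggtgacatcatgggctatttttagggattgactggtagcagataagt
Junb: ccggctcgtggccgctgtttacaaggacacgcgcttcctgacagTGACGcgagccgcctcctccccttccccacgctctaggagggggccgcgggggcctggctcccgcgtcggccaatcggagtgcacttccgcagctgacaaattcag
Nr4a1: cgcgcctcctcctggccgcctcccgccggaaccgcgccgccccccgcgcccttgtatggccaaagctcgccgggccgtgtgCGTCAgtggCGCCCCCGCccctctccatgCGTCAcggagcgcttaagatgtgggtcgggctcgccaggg

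Motifs were searched on both strands of the 250 bases before the start. The core TGACG of the cAMP response element occurred in 5 of the 7 promoters (Fos, Fosb, Junb, Egr2 and Nr4a1), and 17.7% of all 32817 reference promoters of this length held it. Egr2 has 5 reference windows and was counted when any of them matched, which 3 did, so its chance of a match is larger than that of a single promoter. The core TGACG is part of the full element TGACGTCA, which was in none of the 7 and in 1.55% of all promoters. In Fos the core nearest to the start began 66 bases before it, followed by the TATA box TATAAA 33 bases before the start, the only TATAAA among the 7 promoters (12.4% of all promoters). Nr4a1 held 4 such cores and, 60 bases before the start, an EGR site GCGGGGGCG, which Fosb also held 50 bases before its start (2.57% of all promoters). A CArG box in its strict form, CC and GG around a run of A or T, was present in Egr2 alone, in 4 of its 5 windows, which overlap in part (1.47% of all promoters). None of the 7 held the AP-1 site TGACTCA (4.46% of all promoters), and the Jun and Ier3 windows held none of the motifs. A missing match says only that these letters are not in that window.

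All 10 genes were expressed in all 8 cultures. Counts ranged from 173 to 331 for Egr2, the lowest, and from 3328 to 11959 for Egr1. Per kilobase of annotated exon and scaled to library size (RPKM, relative scaling, mean ± SD, n = 4 each), Fos was highest at 114 ± 40.9 in WT and 104 ± 28.6 in Dp1Tyb. Egr2 was lowest at 3.75 ± 0.65 and 3.53 ± 0.40. Between them the order of the mean RPKM was Nr4a1 at 74.2, Egr1 at 73.2, Junb at 67.7, Ier3 at 65.1, Jun at 54.2, Fosb at 37.0, Ier2 at 35.5 and Fosl1 at 16.7. The ranges over the 8 libraries overlapped between all neighbours in that order except the last pair, where Fosl1 ran from 8.40 to 24.3 RPKM and Egr2 from 2.94 to 4.52. Together the 10 genes took 0.170 ± 0.0478% of the endogenous counts of a WT library and 0.148 ± 0.0437% of those of a Dp1Tyb library (SD, n = 4 per genotype).

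Library totals ran from 17698900 to 26471758 counts. Counts were scaled either to the spike-ins or to the endogenous genes (relative scaling). The former keeps differences in endogenous RNA per spike-in between libraries, and the latter removes them. How far these differences reflect the RNA content of the cells was not tested. The endogenous RNA per spike-in, relative to the geometric mean of the 8 libraries, ran from 0.713 to 1.19 in WT and from 0.688 to 1.31 in Dp1Tyb. The lowest value belonged to Dp1Tyb replicate 2. CPM, counts scaled to library size, refers below to relative scaling unless spike-ins are named.

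**Figure D1:**
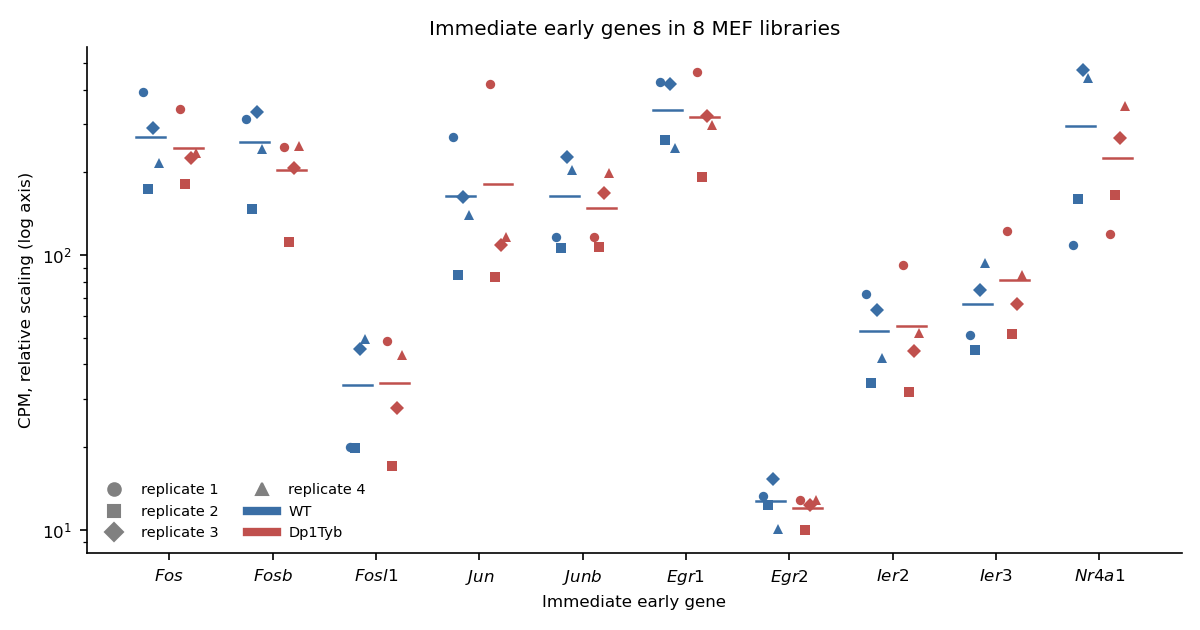
Level of each immediate early gene (CPM under relative scaling, log axis) in the 4 WT (blue) and 4 Dp1Tyb (red) libraries. Marker shapes give the replicate number and horizontal lines the group means. The points of both genotypes overlap for all 10 genes, and replicate 2 of both genotypes lies low for most of them.

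The genotype comparison asked whether the duplication was accompanied by a change in immediate early transcripts. No member was called different between Dp1Tyb and WT by edgeR's quasi-likelihood test at a Benjamini-Hochberg adjusted p under 0.05, under either scaling. Few calls of any kind were made by edgeR: spike-in scaling gave calls for 0.0121% of all genes tested and relative scaling for 0.0182%, or 3 genes. Under relative scaling DESeq2 gave 54 calls, none of them a member. No member reached an unadjusted p under 0.05 either, against 1.17% of all genes with spike-in and 4.27% with relative scaling. The genotypes overlapped for every member, whereas 0.431% of all genes with spike-in and 3.13% with relative scaling had groups that did not overlap. Of the members, 7 had a fold change above zero on the log2 scale and 3 below with spike-in scaling, and 4 and 6 with relative scaling. In the median the members had a log2 fold change of 0.09 under the spike-in factors and -0.09 under the relative ones. The median of all genes was 0.11 and 0.01, so spike-in scaling moves the median gene upwards, and the sign of Junb, Egr1 and Egr2 turned with the scaling. Two-sided exact permutation tests on log2 CPM, 20 in all, gave no p under 0.457, where the smallest possible is 0.0286.

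**Figure D2:**
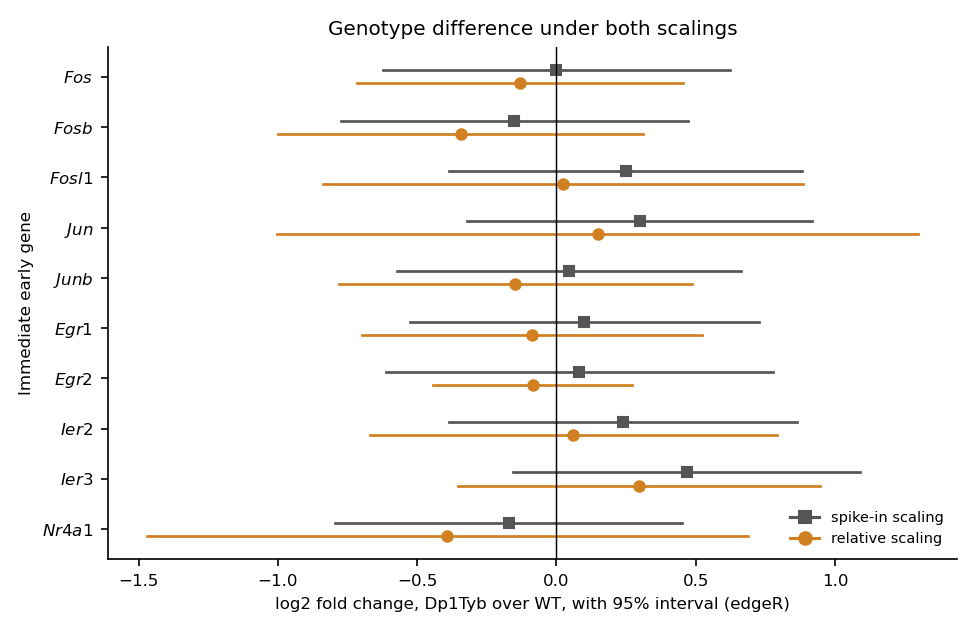
Log2 fold change of Dp1Tyb over WT for each member with its 95% interval, from edgeR with spike-in (grey squares) and relative (orange circles) scaling. All 20 intervals cross zero. With relative scaling Egr2 has the narrowest interval and Jun the widest.

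Among the FOS family, Fos encodes the partner of JUN proteins that gave AP-1 its classical form. Values are given from replicate 1 to replicate 4 here and below. Fos was at 393, 173, 291 and 217 CPM in the WT libraries and at 340, 181, 226 and 235 CPM in the Dp1Tyb libraries. The highest library was replicate 1 and the lowest replicate 2 in each genotype. Its log2 fold change was -0.00096 (SE 0.32) with spike-in scaling and -0.13 (SE 0.26) with relative scaling. The 95% interval with relative scaling ran from 0.609 to 1.37 times the WT level.

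Fosb, a FOS relative likewise induced by serum, was at 312, 147, 331 and 244 CPM in WT and at 247, 111, 207 and 249 CPM in Dp1Tyb. Replicate 2 was again lowest in both genotypes, but replicate 3 was highest in WT and replicate 4 in Dp1Tyb. The log2 fold change with relative scaling was -0.34 (SE 0.29). Fosl1 encodes FRA1, a later member of the family that depends on ERK activity. Fosl1 was at 20.02, 19.9, 45.3 and 49.5 CPM in WT and at 48.6, 17.1, 27.7 and 43.3 CPM in Dp1Tyb. The first libraries of the genotypes therefore stood far apart, low in WT and high in Dp1Tyb, and the log2 fold change was 0.02 (SE 0.39) with relative scaling and 0.25 with spike-in scaling. Ccdc85b overlaps Fosl1 on the opposite strand, with a mean of 106 counts.

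In the JUN family, Jun encodes the founding AP-1 subunit and was the member with the largest range under relative scaling, 5.04 times from lowest to highest library. It was at 269, 84.9, 163 and 140 CPM in WT and at 418, 82.9, 109 and 117 CPM in Dp1Tyb. Replicate 1 was highest and replicate 2 lowest in each genotype, while Dp1Tyb replicates 3 and 4 lay below WT replicates 3 and 4. The log2 fold change was 0.30 (SE 0.32) with spike-in scaling and 0.15 (SE 0.52) with relative scaling. With relative scaling the interval ran from 0.499 to 2.46 times the WT level. Without Dp1Tyb replicate 1 the log2 fold change of Jun was -0.63 with spike-in and -0.67 with relative scaling, still not called. Under relative scaling it was also negative without WT replicate 2 and with the replicate number as a term, at -0.059 in each. Junos, an antisense RNA, overlaps the 5′ end of Jun and had a mean of 84.4 counts.

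Junb encodes a JUN relative that activates AP-1 targets less strongly in many settings. It was at 117, 106, 228 and 204 CPM in WT and at 117, 107, 168 and 200 CPM in Dp1Tyb. Replicates 1 and 2 were low and replicates 3 and 4 high in both genotypes, unlike Fos and Jun. The log2 fold change with relative scaling was -0.15 (SE 0.28). The 3′ end of Junb overlaps that of Prdx2 on the opposite strand, which had a mean of 2123 counts; reads of the overlap cannot be assigned unless strand was used in counting, which is not given in the sources used here.

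Egr1, a zinc finger factor that responds to nearly every growth signal in fibroblasts, was at 426, 262, 421 and 244 CPM in WT and at 462, 192, 321 and 297 CPM in Dp1Tyb. Replicate 1 was the highest library in both genotypes, with WT replicate 3 close to it. The log2 fold change was 0.10 with spike-in and -0.09 (SE 0.27) with relative scaling. Egr2, its relative with a known role in Schwann cells and lymphocytes, was at 13.2, 12.3, 15.3 and 10.0 CPM in WT and at 12.8, 9.98, 12.3 and 12.9 CPM in Dp1Tyb. These were the steadiest values of the group, with a ratio of 1.54 between the highest and lowest library. Egr2 also had the tightest interval with relative scaling, from 0.736 to 1.21 times the WT level around a log2 fold change of -0.09 (SE 0.16).

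Ier2 encodes a small nuclear regulator and was at 72.2, 34.3, 63.1 and 42.3 CPM in WT and at 91.9, 31.8, 44.8 and 52.1 CPM in Dp1Tyb. Its libraries had the same order as those of Jun, except that WT replicate 4 lay lower. The log2 fold change was 0.24 with spike-in and 0.06 (SE 0.33) with relative scaling. Ier3, an ERK-responsive regulator of cell survival, was at 51.3, 45.2, 74.8 and 93.3 CPM in WT and at 122, 51.5, 66.1 and 84.9 CPM in Dp1Tyb. Here Dp1Tyb replicate 1 stood highest while WT replicate 1 was the second lowest library. Ier3 had the largest positive estimate of the group, 0.47 (SE 0.32, unadjusted p = 0.141) with spike-in and 0.30 (SE 0.29) with relative scaling. With spike-in scaling the estimate was 0.14 without Dp1Tyb replicate 1 and 0.82 without WT replicate 4, not called in either.

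Nr4a1 was at 109, 159, 472 and 442 CPM in WT and at 119, 166, 267 and 349 CPM in Dp1Tyb. Replicates 1 and 2 were low and replicates 3 and 4 high in both genotypes, and replicate 1, the top library for Fos and Jun, was the lowest. The log2 fold change was -0.17 with spike-in and -0.39 (SE 0.48) with relative scaling, with an interval of 0.361 to 1.61 times the WT level under the latter. The SE was 0.32 for most members with spike-in scaling because the fit then took nearly 1 common spread for all genes (98820 residual degrees of freedom against 9.89 with relative scaling), so those intervals do not carry the wider spread of Jun or Nr4a1.

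**Figure D3:**
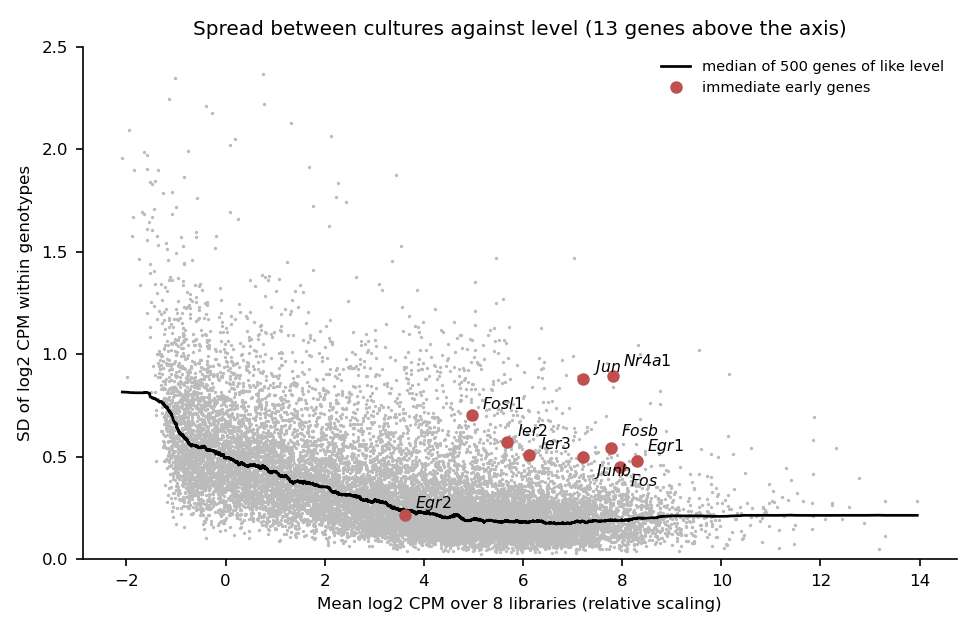
Standard deviation of log2 CPM within genotypes against the mean log2 CPM for all tested genes (grey), with the running median over 500 genes (black) and the 10 immediate early genes (red). Apart from Egr2, the members lie well above the line, and 13 genes fall above the axis limit of 2.5.

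How far cultures of the same genotype differed was measured as the standard deviation of log2 CPM within genotypes, pooled over WT and Dp1Tyb. The median over the members was 0.52, against 0.28 over all tested genes. Nr4a1 had the largest value at 0.89 and Jun followed at 0.88, then Fosl1 at 0.70, Ier2 at 0.57, Fosb at 0.54, Ier3 at 0.51, Junb at 0.50, Egr1 at 0.48 and Fos at 0.45. These 9 genes were above the 90th percentile of about 500 genes of like mean level, with percentiles from 95.4 for Ier2 to 99.6 for Nr4a1. By the same measure 1655 of the 16470 tested genes were above it. Egr2 was the exception, with a standard deviation of 0.22 at percentile 42.1. With spike-in scaling, where the endogenous RNA per spike-in adds to the spread, the medians were 0.79 for the members and 0.48 for all genes.

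**Figure D4:**
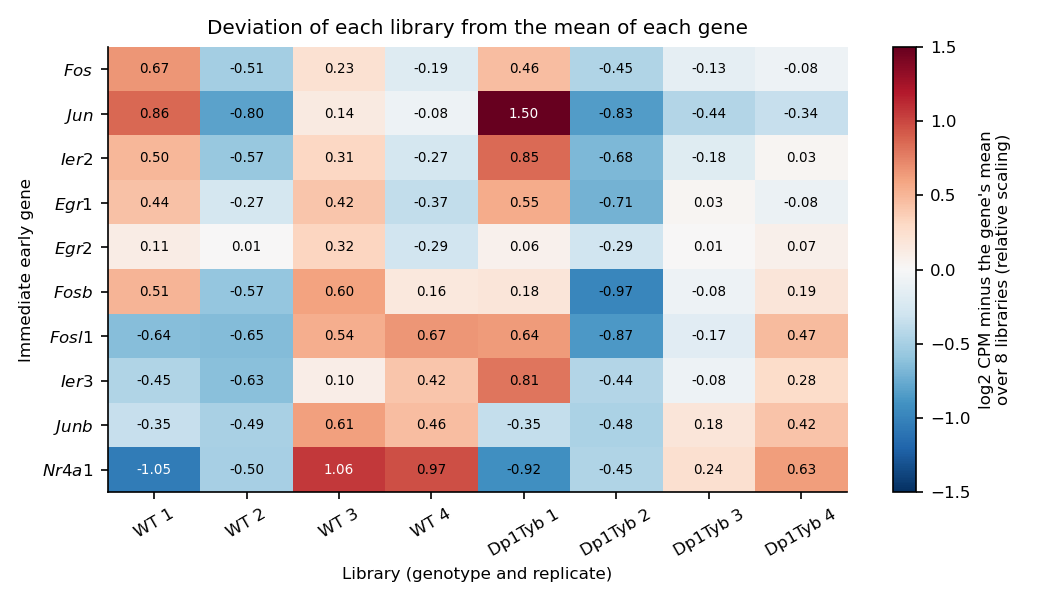
Log2 CPM of each member minus its mean over the 8 libraries (relative scaling), with genes ordered by hand from those high in replicates 1 (top) to those low there (bottom). Replicate 2 of both genotypes is blue for nearly all genes, while replicates 1 are red for Jun, at 0.86 in WT, and blue for Nr4a1 at -1.05 and -0.92.

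Replicate 2 of both genotypes was low for nearly all members. Under relative scaling Dp1Tyb replicate 2 was below the gene mean for 10 of 10 members and WT replicate 2 for 9 of 10, by 0.62 and 0.50 on the log2 scale on average. WT replicate 3 was above it for 10 of 10 members, by 0.43 on average, and Dp1Tyb replicate 1 for 8 of 10, by 0.38. The remaining libraries lay between -0.06 and 0.16. Averaged over the members, the deviation was 0.04 ± 0.39 for WT cultures and -0.04 ± 0.43 for Dp1Tyb cultures (SD, n = 4 per genotype), and the ranges of the genotypes overlapped. With spike-in scaling both replicates 2 were low for 10 of 10 members, and Dp1Tyb replicate 4 was high for 10 of 10, but WT replicate 3 was above the gene mean for 4 of 10 only, with a mean deviation of -0.05. The summed skeletal muscle markers were also highest in replicate 2 of each genotype, at 41.5 CPM in WT and 58.4 CPM in Dp1Tyb, and lowest in replicate 1, at 12.2 and 7.12 CPM. The epithelial markers were likewise highest and lowest there, at 20.9 and 15.1 CPM in replicates 2 and 7.51 and 5.72 CPM in replicates 1. Their part in the levels of the members was not tested.

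A second pattern set replicates 1 apart and was noticed only after the values had been seen. In these 2 libraries Fos, Jun, Egr1 and Ier2 were higher than in the other 6, while Nr4a1 was lower under relative scaling. With spike-in scaling Nr4a1 was lowest in Dp1Tyb replicate 2. The ratio of Jun to Nr4a1 counts, which does not depend on the scaling, was 2.46, 0.533, 0.345 and 0.317 across the WT libraries and 3.50, 0.501, 0.408 and 0.334 across the Dp1Tyb libraries. In each genotype, therefore, the first library had more Jun than Nr4a1 counts and the other libraries had fewer. The ratio of Fos to Nr4a1 was also highest in replicate 1 of each genotype, at 3.60, 1.09, 0.617 and 0.492 in WT and 2.85, 1.09, 0.849 and 0.672 in Dp1Tyb. The ratio of Fos to Junb was 3.37 and 2.92 in replicates 1 and between 1.06 and 1.69 in the other 6 libraries. Fosb per Fos varied less, from 0.615 to 1.14. The sources name no day or batch for the replicate numbers.

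**Figure D5:**
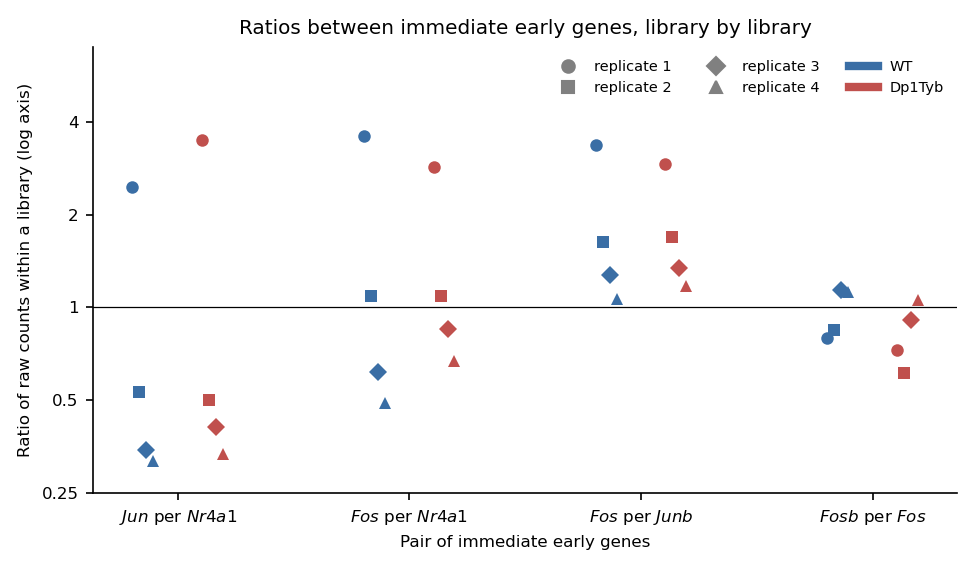
Ratio of raw counts between pairs of immediate early genes within each library (log axis), for WT (blue) and Dp1Tyb (red), with marker shapes for the replicate number. Replicates 1 lie above 2 for Jun per Nr4a1, Fos per Nr4a1 and Fos per Junb, and the other libraries below 2.

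Pairwise Pearson correlations between members over the 8 libraries follow from these patterns and are given as a description, since all genes of a library share its depth and scaling. Jun and Ier2 had r = 0.95 (Spearman's rho 0.93), and 0.87 without the 2 libraries farthest from the median of Jun. Junb and Nr4a1 had r = 0.94 (rho 0.79, and 0.87 without the 2 libraries farthest for Junb). Fosl1 and Ier3 had r = 0.92 (rho 0.88, and 0.88 without the 2 farthest for Fosl1). For Jun and Nr4a1 r was -0.37 over 8 libraries and 0.98 over the 6 libraries left without replicates 1, and for Fos and Nr4a1 it was -0.27 and 0.87. With spike-in scaling r over 8 libraries was -0.02 for Jun and Nr4a1 and 0.11 for Fos and Nr4a1. Under relative scaling the sign for both pairs thus depended on the 2 replicates 1. For Fos and Nr4a1 it also turned with the scaling, whereas for Jun and Nr4a1 it stayed negative over 8 libraries.

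Among the other 16460 tested genes, those most like the mean of the 10 members over the 8 libraries, after each genotype's mean was subtracted, were Hoxd10 (r = 0.99), Itpkb (0.99), Retreg2 (0.99), Dock1 (0.99), Fgf18 (0.99), Stk11 (0.98), Leng9 (0.98), Npy (0.98), Ppp1r3c (0.98) and Tcf7l2 (0.98). These values are high by the way the genes were chosen, as the top of a ranking. None of these 10 is a classical immediate early gene. The members themselves correlated with their mean, in which each is included, from 0.35 for Nr4a1 to 0.94 for Fosb.

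A wider list of 58 further growth factor-responsive early genes gave 56 that were tested, as Egr4 had no row and Dusp2 did not pass the filter. None was called under either scaling, and 1 was higher and none lower at an unadjusted p under 0.05 in each. The median log2 fold change of the list was 0.14 with spike-in and -0.01 with relative scaling. Its median spread was 0.40, and 31 of the 56 were above the 90th percentile for their level. The gene with the smallest p was Ccn2, a matrix-associated growth regulator, with a log2 fold change of 0.57 (SE 0.22, unadjusted p = 0.0293) under relative scaling. Ccn2 was at 202, 387, 217 and 276 CPM in WT and at 510, 428, 341 and 323 CPM in Dp1Tyb, so WT replicate 2 lay within the Dp1Tyb range. Myc, a driver of growth, and Hbegf, an EGF receptor ligand, followed with 0.33 and 0.38.

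The widest spreads of that list belonged to Nr4a3 and Nr4a2, the closest relatives of Nr4a1, and to Areg, a further EGF receptor ligand. Nr4a3 was at 12.2, 33.1, 136 and 123 CPM in WT and at 11.8, 33.6, 61.5 and 85.4 CPM in Dp1Tyb, with a spread of 1.47. Within each genotype its libraries had the same order as those of Nr4a1. Nr4a2 was at 55.5, 62.4, 234 and 268 CPM in WT and at 90.6, 58.4, 110 and 173 CPM in Dp1Tyb, with a spread of 0.97. All 3 NR4A genes were therefore lower in replicates 1 and 2 than in replicates 3 and 4 of each genotype. Areg was low throughout, between 0.76 and 6.65 CPM.

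Genes upstream of the members, which encode receptors, kinases and the factors that bind their promoters, had narrower spreads. All 32 were tested and none was called. Their median spread was 0.15, against 0.28 over all tested genes. Elk3 and Mapkapk2 were among the genes of the list that spread most, at 0.26 and 0.25. Map2k1, which encodes the ERK kinase MEK1, was the only one at an unadjusted p under 0.05 with relative scaling, against 4.27% of all genes. It was at 77.3, 90.4, 80.2 and 83.2 CPM in WT and at 123, 107, 90.8 and 98.6 CPM in Dp1Tyb. The groups thus did not overlap, as for 3.13% of all genes, and its log2 fold change was 0.34 (unadjusted p = 0.0129). With spike-in scaling its groups overlapped. Crem and Pdgfra came next with -0.27 and -0.19.

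Genes of the actin cytoskeleton and contraction that SRF controls were also compared. Of 20 tested, 19 had a fold change above zero and 1 below in each scaling, where 11598 of all 16470 genes lay above zero with spike-in and 8430 with relative scaling. In the median the list had a log2 fold change of 0.25 under relative scaling, but none was called and 1 reached an unadjusted p under 0.05. That gene was Tpm1, a tropomyosin, with 0.35 under relative scaling (unadjusted p = 0.0376), and Filip1l and Tgfb1i1 followed with 0.29 and 0.25. The widest spreads were those of Actg2, Cnn1 and Myl9, smooth muscle contractile genes. Myl9 was at 26.8, 76.5, 13.4 and 18.2 CPM in WT and at 11.5, 97.3, 58.8 and 38.8 CPM in Dp1Tyb. It was highest in the replicates 2, where the members were low. The summed skeletal muscle markers, also highest in the replicates 2, were at 16.8 and 16.2 CPM in WT replicates 3 and 4 and at 41.5 and 46.3 CPM in Dp1Tyb replicates 3 and 4, and their part in the contractile genes was not tested.

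Heat shock and stress genes showed a median spread of 0.23 in 20 tested genes, none of them called, and 17 lay above zero and 3 below under relative scaling (19 and 1 with spike-ins). Hmox1, the heme-degrading stress enzyme, was lower in Dp1Tyb at an unadjusted p of 0.0151 under relative scaling, with a log2 fold change of -0.48. Hspa8 and Chordc1, with the next smallest p, had 0.23 and 0.19. The widest spreads were those of the inducible chaperone genes Hspa1a at 0.71, Hspb1 at 0.51 and Hspa1b at 0.50. Hspa1a was at 7.42, 2.88, 8.38 and 6.41 CPM in WT and at 11.1, 3.35, 5.46 and 7.77 CPM in Dp1Tyb. Its lowest library was replicate 2 in both genotypes, as for Fos, Jun and Ier2, and as for Hspa1b at 12.9 and 13.2 CPM. Hspb1 was instead lowest in replicate 1 of both genotypes, at 13.2 and 10.9 CPM. Hspa8 and Chordc1 were highest in Dp1Tyb replicate 2, at 1429 and 102 CPM.

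Genes known as later targets of AP-1 had a median spread of 0.44, with 12 of 20 above the 90th percentile for their level. Of the 20, 16 lay above zero and 4 below under relative scaling (17 and 3 with spike-ins). None was called, and with relative scaling 3 were higher and 1 lower at an unadjusted p under 0.05, where all tested genes gave 287 higher and 416 lower and 8430 of 16470 above zero. Mmp9, a gelatinase, was at 1.88, 3.65, 1.52 and 1.84 CPM in WT and at 5.88, 4.33, 4.04 and 4.49 CPM in Dp1Tyb. The groups did not overlap with relative scaling, as for 3.13% of all genes, but did with spike-in scaling. The log2 fold change of Mmp9 was 1.07 with relative scaling (unadjusted p = 0.0041) and 1.21 with spike-in scaling (unadjusted p = 0.00506). The chemokine gene Ccl2 had 0.46 and the cyclin gene Ccnd1 -0.42 under relative scaling. Il6 and Mmp10 were among those that spread most, both at 1.10. Il6 was at 1.70 and 3.40 CPM in replicate 1 of WT and Dp1Tyb, against 8.36 to 12.98 CPM in the other 6 libraries, so it was low where Fos and Jun were high.

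Fibroblast markers defined the cultures, with summed levels of 25446 to 36922 CPM in WT and 30005 to 36077 CPM in Dp1Tyb over 12 of 12 genes. Macrophage markers, which other cells in MEF cultures could supply, were lower in Dp1Tyb for 8 of 11 tested genes at an unadjusted p under 0.05 with relative scaling. None was called, and 416 of all 16470 tested genes were lower at that p. The markers belong to the same cell type, so they are not separate results. The sums of the macrophage markers were 327 to 431 CPM in WT and 182 to 343 CPM in Dp1Tyb. They were highest in replicate 1 of each genotype, at 431 and 343 CPM, the libraries in which Fos and Jun were highest. In bulk RNA, fewer cells of a type and less RNA per cell cannot be told apart, and the part of these cells in the members' levels was not tested. Endothelial markers summed to 234 to 324 CPM in WT and 263 to 304 CPM in Dp1Tyb, epithelial markers to 7.51 to 20.9 and 5.72 to 15.1 CPM, skeletal muscle markers to 12.2 to 41.5 and 7.12 to 58.4 CPM, and neural markers to 113 to 134 and 86.3 to 127 CPM. Of the 9 neural markers tested, 2 were lower in Dp1Tyb at an unadjusted p under 0.05 with relative scaling and none was called. Of the defining muscle genes, Myod1, Myf5 and Ckm had no row in the table.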

How the data were processed

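Per the methods and labels, the authors added ERCC spike-ins to MEFs in Trizol, prepared stranded poly(A) libraries and sequenced paired ends. Reads were trimmed with Trim Galore and aligned to GRCm38 with TopHat2 2.0.12, reads with several alignments were discarded, and HTSeq counted reads per gene; the strand option and the annotation release are not given in the sources used here. The deposited counts are raw whole numbers per gene for 8 libraries, with no normalisation, and only these were used. The authors' normalised table and their DESeq2 1.6.3 table of fold changes and p-values were not used.

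The 19493 endogenous IDs were matched to GENCODE M21 symbols (19318 matched), which also gave exon lengths. Fits used edgeR 4.0.16 in R 4.3.3 (filterByExpr, glmQLFit, glmQLFTest, two-sided) on all 8 libraries with genotype as the only term, and Benjamini-Hochberg adjustment over 16470 genes. Spike-in factors were median-of-ratios factors over the 63 spike-ins, and relative factors were TMM factors over endogenous genes. Kept genes held 99.9% of endogenous counts. The scripts were tested on simulated counts. Log2 CPM had a pseudocount of 0.5, and spread was the standard deviation within genotypes (6 degrees of freedom). Intervals are 95% intervals from edgeR. Depth was 17698900 to 26471758 counts per library, so counting error was small beside the spread between libraries for genes with many counts. It weighs more for genes with few counts, such as Egr2 (173 to 331 counts) and Areg (14 to 137 counts). No library was a duplicate of another of its genotype (chi-square per degree of freedom within genotypes 10.6 to 98.5).

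Named genes were the 10 members, the 3 genes with the smallest p and the 3 with the widest spread under relative scaling in each of the 5 further lists, and the 10 genes most like the members' mean. Some of these are not reported here. The members and lists were chosen with earlier results of these data known. Promoters are from RefSeq on GRCm38.p6. Alternatives were DESeq2 1.42.0, other size factors and filters, a pseudocount of 5, a replicate block and leaving out libraries. Figures were drawn with matplotlib 3.10.9.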

Additional observations from a re-analysis of the deposited data

How the results depend on the processing

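No member was called under any of the 16 alternatives with spike-in scaling or the 15 with relative scaling. The number of all genes called varied: with at least 10 counts in every library edgeR called 0 under both scalings, and DESeq2 with its own size factors called 54 under relative scaling. The median spread of the members was 0.52 with relative scaling, where it ran from 0.43 to 0.56 with libraries left out. With spike-in scaling and all libraries it was 0.79. Small estimates changed sign with the scaling factors: Fos was at 0.0032 with spike-in totals and 0.044 with TMM over the spike-ins, and Fosl1 at -0.013 with upper quartile factors. Leaving out WT replicate 1 together with Dp1Tyb replicate 1 was an alternative chosen after seeing the data, because Jun stood above Nr4a1 there. In none of these cases was the cause tested.

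A replicate block, with the replicate number as a term, called 9 of all genes under the spike-in factors and 7 under the relative ones, and turned the sign of Junb (-0.016) and Egr1 (-0.0075) under spike-in and of Jun (-0.059) under relative scaling, with no member called. Under the block and relative scaling Fosb had a log2 fold change of -0.35 at an unadjusted p of 0.0209 (edgeR adjusted p = 0.435). How many of all genes had an unadjusted p under 0.05 in that fit is not given here. The deviations of libraries with the same number correlated across genes with r of 0.37, 0.52, 0.03 and 0.33 for numbers 1 to 4, and WT replicate 3 correlated best with Dp1Tyb replicate 4 (0.32). Libraries numbered 1, 2 and 4 correlated best with their own number and those numbered 3 did not, a hint from the data and not from the design. As 1 of the 4 values was under 0.1, the number was kept out of the main comparison.

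With libraries left out, the spike-in fit called 2 to 8 of all genes and the relative fit called 1 each time. The log2 fold changes that turned sign ranged, with spike-in scaling, from -0.27 to 0.40 for Fos, -0.37 to 0.15 for Fosb, -0.14 to 0.67 for Fosl1, -0.63 to 0.81 for Jun, -0.28 to 0.31 for Junb, -0.20 to 0.38 for Egr1, -0.064 to 0.30 for Egr2, -0.19 to 0.58 for Ier2 and -0.64 to 0.31 for Nr4a1. With relative scaling they ranged from -0.33 to 0.12 for Fos, -0.38 to 0.27 for Fosl1, -0.67 to 0.50 for Jun, -0.33 to 0.064 for Junb, -0.32 to 0.091 for Egr1, -0.18 to 0.026 for Egr2, -0.30 to 0.25 for Ier2 and -0.072 to 0.51 for Ier3. Fosb and Nr4a1 under relative scaling and Ier3 under spike-in scaling kept their sign, but ranged from -0.53 to -0.14, from -0.68 to -0.064 and from 0.10 to 0.82. With spike-in scaling the unadjusted p was under 0.05 for Jun without WT replicate 1 (0.0281) or Dp1Tyb replicate 2 (0.0274) and for Ier3 without WT replicate 4 (0.0205) or Dp1Tyb replicate 2 (0.00839). The share of all genes under 0.05 in these fits is not given here, so these values are not read as a result about the members. Counting error was small for these genes beside the spread between the libraries of a genotype, least so for Egr2 with 173 to 331 counts.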
